A study of Mus musculus with 16 samples.

Results

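The genes described here, 10 in number, serve sodium, calcium and magnesium handling in the distal convoluted tubule, the short nephron segment after the thick ascending limb. They were taken by gene symbol from the deposited expression table of mouse kidney, in which 10 of 46078 genes carried a listed symbol: Slc12a3, Wnk4, Klhl3, Pvalb, Trpm6, Cnnm2, Trpv5, Calb1, Fxyd2 and Kcnj10. All 16 libraries came from kidneys of C57BL/6 mice aged 20 weeks, perfused and harvested 72 h after an intraperitoneal injection. BL_vehicle mice had no preconditioning and received 0.9% sodium chloride. BL_cisplatin mice had none and received cisplatin, a platinum drug that injures kidney tubules. CR_cisplatin mice underwent 4 weeks of calorie restriction and HP_cisplatin mice hypoxia of 2, 4 and 8 h over 3 days, both before cisplatin. Each group held 4 libraries, and no preconditioned mice given saline were analysed here. The labels used here name no cisplatin dose. They do not say that the libraries of a group were separate mice, so the p-values reflect the spread among these libraries alone, which may be technical.

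The distal convoluted tubule takes up sodium chloride through the thiazide-sensitive cotransporter NCC, encoded by Slc12a3. NCC activity is set by WNK kinases, which a ubiquitin ligase of KLHL3 and cullin-3 removes. The segment sets the final magnesium content of urine through the apical channel TRPM6, and its late part shares calcium reabsorption through TRPV5 and calbindin with the connecting tubule. A basolateral sodium pump and potassium channels provide the gradients for this transport, and low blood magnesium is a known side effect of cisplatin.

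Expression was given as TPM, a transcript level per exon length that has the same sum in each library. Between 49181362 and 62604724 reads per library were recovered from these values. HP_cisplatin 4 and CR_cisplatin 4 differed less from each other than did any other pair of libraries. Over 16763 genes, the median squared difference was 1.81 times that of read sampling alone, against 3.33 for the next pair. By the mean over genes it was 3.37 times, against 10.55. Whether both libraries carry their true labels could not be settled from the sources used here. Counts of members called with hypoxia are therefore given with and without HP_cisplatin 4, and those with calorie restriction with and without CR_cisplatin 4. Library titles carry 2 number prefixes, whose meaning the labels do not give. BL_cisplatin 1 to 4 and CR_cisplatin 1 share the first prefix and the other libraries share the second, so prefix and group cannot be told apart between BL_cisplatin and either BL_vehicle or HP_cisplatin. A difference was called at an adjusted p under 0.05 (limma, over the 15014 genes that reached 1 TPM in 4 or more libraries). All 10 members passed that filter.

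Upstream sequences are shown for 4 members that differ in their response: Slc12a3 and Pvalb, which fell most in TPM under cisplatin, the magnesium channel gene Trpm6, and Wnk4, which moved least. Each is the 250 bases before a RefSeq start (GRCm38.p6), read in the direction of the gene. Capitals mark matches on either strand to TATAAA (the TATA box), CCAAT (the CCAAT box, which reads ATTGG on the other strand) and GCCNNNGGC (a palindrome known for AP-2 factors).
Slc12a3 (chr8:94328958-94329207, plus strand): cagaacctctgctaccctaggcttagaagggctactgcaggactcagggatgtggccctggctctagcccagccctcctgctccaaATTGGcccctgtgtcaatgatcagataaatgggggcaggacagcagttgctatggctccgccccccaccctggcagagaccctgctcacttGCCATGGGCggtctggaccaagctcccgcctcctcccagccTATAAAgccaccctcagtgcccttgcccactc
Pvalb (chr15:78206401-78206650, minus strand): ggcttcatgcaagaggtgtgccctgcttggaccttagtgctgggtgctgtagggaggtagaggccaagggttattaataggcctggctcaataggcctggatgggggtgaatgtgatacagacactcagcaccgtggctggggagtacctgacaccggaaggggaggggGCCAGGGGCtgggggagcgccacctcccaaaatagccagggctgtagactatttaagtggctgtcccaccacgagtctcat
Trpm6 (chr19:18749480-18749729, plus strand): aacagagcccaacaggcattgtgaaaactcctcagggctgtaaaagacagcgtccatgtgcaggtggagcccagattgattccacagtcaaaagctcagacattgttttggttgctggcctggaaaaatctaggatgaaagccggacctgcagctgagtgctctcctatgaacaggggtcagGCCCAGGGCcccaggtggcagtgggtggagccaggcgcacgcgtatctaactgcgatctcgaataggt
Wnk4 (chr11:101260317-101260566, plus strand): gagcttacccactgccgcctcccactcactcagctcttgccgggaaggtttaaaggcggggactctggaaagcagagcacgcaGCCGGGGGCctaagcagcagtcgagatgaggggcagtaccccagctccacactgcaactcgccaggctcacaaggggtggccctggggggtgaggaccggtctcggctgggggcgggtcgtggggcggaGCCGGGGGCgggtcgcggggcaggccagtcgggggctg
RefSeq entries were found for 8 of the 10 members, with 2 starts for Pvalb, of which the one at the annotated gene start is printed. Calb1 and Fxyd2 had none. The Trpm6 start used by RefSeq lies upstream of the start in the gene annotation, and that of Slc12a3 a few bases downstream of it. GCCNNNGGC was found in 6 of the 9 member sequences (Kcnj10, both of Pvalb, Slc12a3, Trpm6 and Wnk4), against 13.7% of 32851 promoters of the same length. The 9 sequences held 51.6% to 71.6% G and C, and the shares over all promoters were not matched for this, so enrichment was not tested. TATAAA was found in 2 (Slc12a3 and Trpv5, against 12.4% of all promoters) and CCAAT in 3 (Cnnm2, Kcnj10 and Slc12a3, against 33.8%). In Kcnj10 a CCAAT match at -67 lies inside the GCCNNNGGC match at -70, counted from the start. Neither GTTAAT, the half-site of HNF1 factors (6.43% of all promoters), nor the full palindrome of the glucocorticoid and mineralocorticoid receptors (0.00913%) matched any of the 9. Slc12a3 and Wnk4, at opposite ends of the cisplatin response, both hold a GCCNNNGGC match.

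In vehicle kidneys the level of the members ran from 1677 to 4.97 mean TPM. Fxyd2 was highest at 1677 ± 80.0 TPM (SD, n = 4), followed by Slc12a3 at 260.3 ± 8.86 TPM and Calb1 at 58.2 ± 4.59 TPM. Wnk4 (24.8), Klhl3 (13.9), Cnnm2 (13.4) and Pvalb (11.3) came next in mean TPM, and the libraries of Klhl3 and Cnnm2 overlapped. Kcnj10 (6.84), Trpm6 (6.56) and Trpv5 (4.97) were lowest, each overlapping with its neighbour in that order. The defining genes of the segment (Slc12a3, Pvalb and Trpm6) were thus measured in every vehicle library. Pvalb is also a skeletal muscle gene, and 6 muscle markers summed to 0.267 to 0.725 TPM in the vehicle libraries, with Acta1 and Myh4 listed at 0 in all 4.

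After cisplatin, 9 of the 10 members fell and 1, Trpv5, was not called. Of all genes tested, 28.8% were called lower. The median difference of the members was -1.51 in log2(TPM + 1), against 0.08 over all genes tested. For 8 members all BL_cisplatin libraries lay below all vehicle libraries, as they did for 26.6% of the genes tested. In whole kidney RNA, fewer cells that express a member, of this segment or others, and less RNA per cell cannot be told apart.

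**Figure D1:**
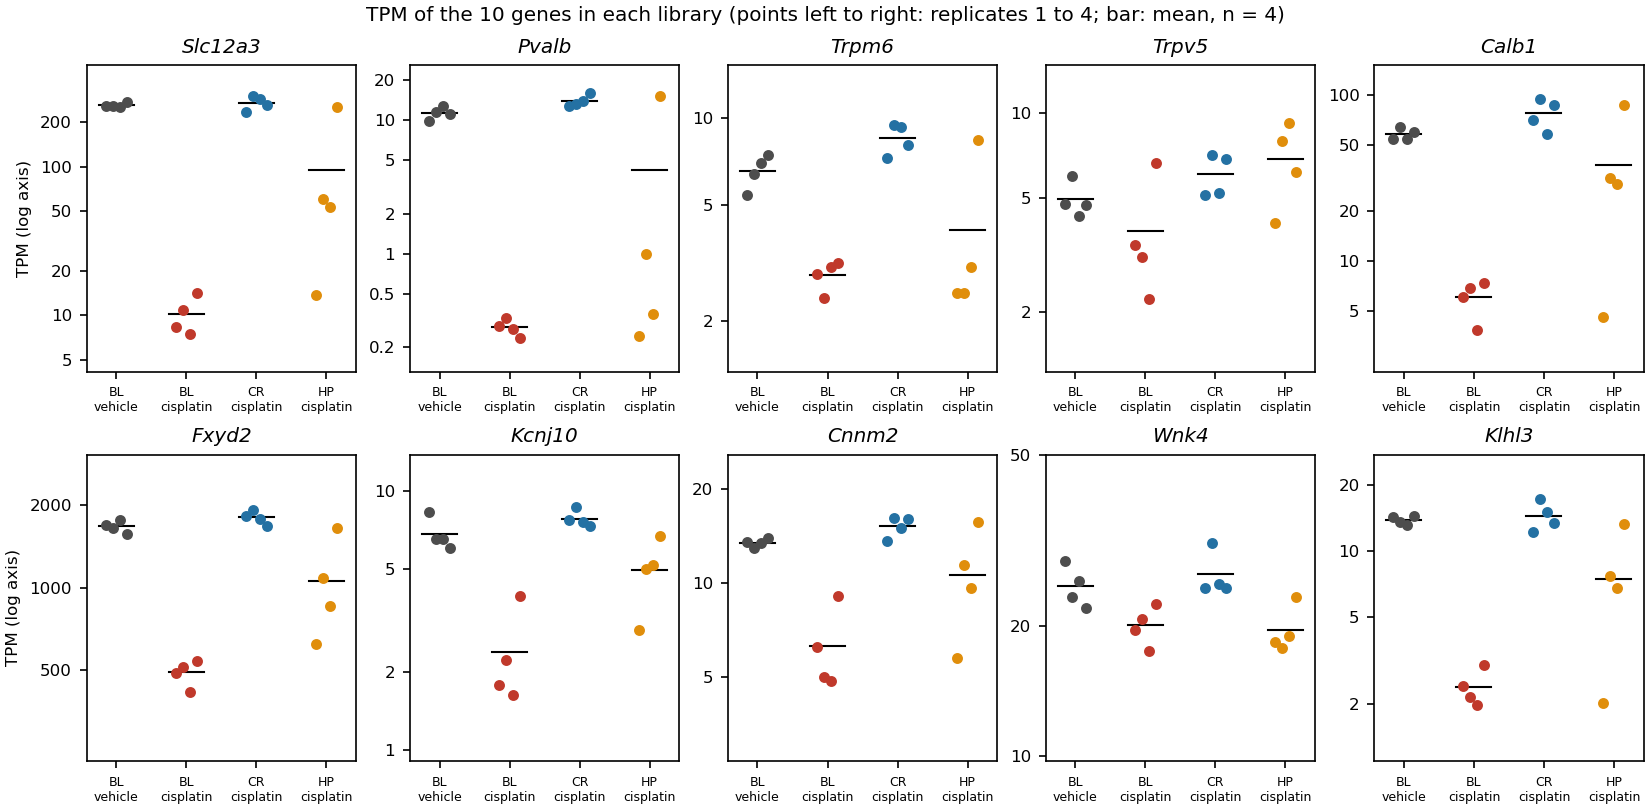
TPM of each of the 10 members (vertical log axis, with its own scale in each panel) in the 4 libraries of each group; points are libraries 1 to 4 from left to right and bars are group means. BL_cisplatin points lie below all vehicle points for 8 members, CR_cisplatin points overlap with the vehicle points for all 10, and HP_cisplatin points are spread between both levels for most, as for Slc12a3 from 13.6 to 254 TPM.

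Slc12a3 (chr8:94329201-94366214, plus strand), which encodes NCC itself, read 256, 259, 253 and 273 TPM in the vehicle libraries. In BL_cisplatin it read 8.34, 10.9, 7.46 and 14.2 TPM. The groups did not overlap, and every BL_cisplatin library was below 6% of the vehicle mean. The mean was 25.5-fold lower in TPM, with a difference in log2(TPM + 1) of -4.58 (SE 0.56, adjusted p = 4.53e-05). CR_cisplatin read 233, 302, 284 and 259.9 TPM, a range that spans the vehicle libraries. HP_cisplatin read 13.6, 61.1, 53.5 and 254 TPM: library 1 was within the BL_cisplatin range, libraries 2 and 3 were between the groups and library 4 was within the vehicle range.

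Wnk4 (chr11:101260567-101277409, plus strand) encodes a kinase that controls NCC, and its level moved little. It read 28.4, 23.4, 25.5 and 22.1 TPM in vehicle and 19.6, 20.8, 17.5 and 22.5 TPM in BL_cisplatin, where library 4 was above the lowest vehicle library. The difference of -0.29 (SE 0.11, adjusted p = 0.0296) in log2(TPM + 1) was called. The call ended at adjusted p = 0.0788 when the most abundant genes were left out of the scaling and at 0.149 with voom on the recovered reads. It also ended without BL_vehicle 1 (-0.23, adjusted p = 0.098) or 3 (-0.28, 0.0634) and without BL_cisplatin 1 (-0.28, 0.0604) or 3 (-0.23, 0.0967). An antisense gene, Gm11615, overlaps its exons and read at most 0.325 TPM. Wnk4 read 24.6, 31.3, 25.1 and 24.6 TPM in CR_cisplatin and 18.4, 17.8, 19.03 and 23.4 TPM in HP_cisplatin. Library 2 of CR_cisplatin was above all others, and HP_cisplatin libraries 1 to 3 lay below all vehicle libraries.

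Klhl3 (chr13:58000228-58113592, minus strand), the substrate adaptor of the ligase that removes WNK kinases, also fell. Vehicle libraries read 14.3, 13.7, 13.1 and 14.5 TPM and BL_cisplatin libraries 2.43, 2.17, 1.98 and 3.03 TPM. The groups did not overlap. The mean was 5.79-fold lower in TPM, with a difference in log2(TPM + 1) of -2.14 (SE 0.32, adjusted p = 8.31e-05). In CR_cisplatin it read 12.3, 17.3, 15.1 and 13.5 TPM and in HP_cisplatin 2.02, 7.72, 6.81 and 13.3 TPM. The CR_cisplatin libraries spanned the vehicle range, and the HP_cisplatin libraries ran from the BL_cisplatin to the vehicle level.

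Pvalb (chr15:78191114-78206400, minus strand) encodes parvalbumin, a cytosolic calcium-binding protein and marker of the early distal convoluted tubule. It read 9.82, 11.5, 12.8 and 11.2 TPM in vehicle and 0.287, 0.334, 0.276 and 0.236 TPM in BL_cisplatin. The BL_cisplatin libraries were far below the vehicle libraries and held only 10 to 13 reads each. The mean was 40-fold lower in TPM, with a difference in log2(TPM + 1) of -3.26 (SE 0.57, adjusted p = 0.000223), where the added 1 compresses the fold of so low a gene. Pvalb read 12.8, 13.1, 13.8 and 16.04 TPM in CR_cisplatin. In HP_cisplatin it read 0.244, 1.00, 0.356 and 15.2 TPM, so that libraries 1 to 3 stayed below 9% of the vehicle mean while library 4 was above all vehicle libraries.

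Trpm6 (chr19:18749983-18892511, plus strand), the apical magnesium channel with a kinase domain, read 5.42, 6.40, 7.01 and 7.43 TPM in vehicle and 2.90, 2.40, 3.06 and 3.16 TPM in BL_cisplatin. No library of one group reached the other. The difference in log2(TPM + 1) was -0.96 (SE 0.24, adjusted p = 0.003), smaller than that of Slc12a3 or Pvalb. CR_cisplatin read 7.28, 9.48, 9.29 and 8.07 TPM and only library 1 was within the vehicle range, the others being above it. HP_cisplatin read 2.49, 2.49, 3.05 and 8.41 TPM. Libraries 1 to 3 of HP_cisplatin were all within the BL_cisplatin range, and library 4 was above all vehicle libraries.

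Cnnm2 (chr19:46761596-46880192, plus strand), a basolateral membrane protein whose loss causes magnesium wasting, read 13.5, 12.9, 13.4 and 13.9 TPM in vehicle and 6.21, 4.98, 4.83 and 9.06 TPM in BL_cisplatin. The highest BL_cisplatin library, number 4, was still below the vehicle range. The difference in log2(TPM + 1) was -1.02 (SE 0.22, adjusted p = 0.000922). It read 13.6, 16.1, 14.9 and 16.03 TPM in CR_cisplatin and 5.74, 11.4, 9.60 and 15.6 TPM in HP_cisplatin. Here HP_cisplatin 2 and 3 were above all BL_cisplatin libraries, where those of Trpm6 were not.

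Trpv5 (chr6:41652173-41680769, minus strand), the apical calcium channel of the distal nephron, was the member without a call after cisplatin. It read 4.78, 6.01, 4.35 and 4.75 TPM in vehicle and 3.43, 3.12, 2.22 and 6.64 TPM in BL_cisplatin. BL_cisplatin 1 to 3 were below all vehicle libraries and BL_cisplatin 4 above them. The difference in log2(TPM + 1) was -0.37 (SE 0.24, adjusted p = 0.189). It turned into a call without BL_cisplatin 4 (-0.61, adjusted p = 0.0182). Trpv5 read 5.15, 7.13, 5.23 and 6.90 TPM in CR_cisplatin and 4.10, 7.97, 9.17 and 6.18 TPM in HP_cisplatin. HP_cisplatin 2, 3 and 4 were all above the highest vehicle library, and HP_cisplatin 2 and 3 were the highest of all 16 libraries.

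Calb1 (chr4:15881264-15908064, plus strand), the calbindin that carries calcium across the cell, read 54.4, 63.8, 54.5 and 60.2 TPM in vehicle and 6.08, 6.91, 3.87 and 7.36 TPM in BL_cisplatin. The groups were apart by a wide margin, and the mean was 9.61-fold lower in TPM. The difference in log2(TPM + 1) was -3.10 (SE 0.56, adjusted p = 0.000274). It read 70.7, 94.4, 58.4 and 86.4 TPM in CR_cisplatin and 4.58, 31.6, 29.1 and 86.8 TPM in HP_cisplatin. HP_cisplatin 1 was within the BL_cisplatin range, libraries 2 and 3 were at 54.3% and 50.04% of the vehicle mean, and library 4 was above all vehicle libraries.

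Fxyd2 (chr9:45399669-45410278, plus strand), the gamma subunit that regulates the sodium pump, was the most abundant member in every group. It read 1699, 1660.0, 1770.0 and 1578 TPM in vehicle and 486, 514, 416 and 539.6 TPM in BL_cisplatin. The groups did not overlap, and the mean was 3.43-fold lower in TPM with a difference in log2(TPM + 1) of -1.78 (SE 0.21, adjusted p = 4.18e-05). It read 1832, 1922, 1788 and 1689 TPM in CR_cisplatin and 621, 1083, 853 and 1660.0 TPM in HP_cisplatin. It was the one member with every HP_cisplatin library above every BL_cisplatin library, as 6.41% of the genes tested were.

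Kcnj10 (chr1:172341210-172374085, plus strand), the basolateral potassium channel Kir4.1, read 8.31, 6.50, 6.50 and 6.03 TPM in vehicle and 1.79, 2.23, 1.63 and 3.92 TPM in BL_cisplatin. BL_cisplatin 4 was the highest of its group but below the vehicle range, and the difference in log2(TPM + 1) was -1.25 (SE 0.20, adjusted p = 0.000129). It read 7.69, 8.62, 7.59 and 7.32 TPM in CR_cisplatin and 2.91, 4.97, 5.18 and 6.67 TPM in HP_cisplatin. HP_cisplatin 2 and 3 reached 72.8% and 75.8% of the vehicle mean, and HP_cisplatin 1 was within the BL_cisplatin range.

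Among the BL_cisplatin libraries, number 4 was the highest for 9 of the 10 members, all but Pvalb, a pattern seen after the values were known. CR_cisplatin 2 and HP_cisplatin 4 were likewise the highest of their groups for 9 members each. The same count was not made over all genes tested, so it cannot be read as particular to the members. Beside these falls, the summed TPM of 6 proximal tubule markers was 105.5 to 169.4 in BL_cisplatin against 2789 to 3559 in vehicle, and that of 5 thick ascending limb markers 178.8 to 474.3 against 1262 to 2248. The sums of 6 connecting tubule and principal cell markers overlapped, at 143.7 to 245.2 against 170.4 to 293.0, with Aqp2 the most abundant of them and not called (0.16). Of these 6, 3 were called lower: Scnn1g (-1.12), Aqp3 (-0.51) and Hsd11b2 (-0.49). Summed intercalated cell markers (30.1 to 49.5 against 56.9 to 63.9) and endothelial markers (29.1 to 35.6 against 39.8 to 50.7) were lower without overlap. So were summed red blood cell markers (0.353 to 1.22 against 18.2 to 30.2), while summed podocyte markers overlapped (39.7 to 55.3 against 45.8 to 49.9). Of the 5 podocyte markers, 2 were called higher, Synpo (1.125) and Wt1 (0.341), 1 lower, Podxl (-0.38), and 2 were not called. Of the 5 intercalated cell markers, 2 were called lower, Slc4a1 (-2.033) and Slc26a4 (-1.447), and 3 were not called. Of the 5 endothelial markers, 2 were called lower, Kdr (-1.193) and Emcn (-0.998), 1 higher, Cdh5 (0.305), and 2 were not called. Leukocyte markers went both ways. Cd68 rose from a mean of 1.72 to 56.7 TPM (adjusted p = 5.73e-05), while Csf1r fell from 12.6 to 4.04 TPM (0.000277). Itgam averaged 0.241 TPM in vehicle and 1.62 TPM in BL_cisplatin. It passed the filter only through the BL_cisplatin libraries, so its values are given with no test. Of the leukocyte markers below the filter, Ptprc averaged 1.00 TPM in vehicle and 0.341 TPM in BL_cisplatin, Cd3e 0.182 and 0.0271 TPM, and Cd79a 0.0729 and 0.725 TPM. The sum of all 6, at 50.7 to 74.0 TPM against 13.7 to 18.2, was mostly Cd68 in BL_cisplatin. The part of these other cell types in the members' differences was not tested. With the title prefix as a term in the fit, the cisplatin call remained for Slc12a3 (-4.31, adjusted p = 0.035), Fxyd2, Kcnj10 and Klhl3 and ended for Pvalb (-3.11, 0.0594), Trpm6 (-0.70, 0.268), Calb1 (-2.95, 0.0644), Cnnm2 (-0.83, 0.152) and Wnk4 (-0.17, 0.563). All 10 differences kept their direction. In that fit, prefix and group were separated only through CR_cisplatin 1, so the calls kept and lost rest on that library.

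Within a library, the level of each of the other 9 members was also set against Slc12a3 as a difference of log2(TPM + 1). Slc12a3 had the largest fall of the 10 members after cisplatin and the largest rise with either preconditioning on this scale, so the choice of Slc12a3 fixes the direction of these differences, and they are given with no test. In BL_cisplatin against vehicle they ran from 1.32 for Pvalb and 1.48 for Calb1 to 4.29 for Wnk4. In calorie restriction against BL_cisplatin, which uses the same BL_cisplatin libraries, they ran from -1.09 for Pvalb to -4.25 for Wnk4. With a pseudocount of 0.1, those of Pvalb turned to -0.20 and 0.45. In plain TPM, Pvalb over Calb1, a pair chosen after the values were seen, was 0.180 to 0.235 in vehicle and 0.0321 to 0.0713 in BL_cisplatin.

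**Figure D2:**
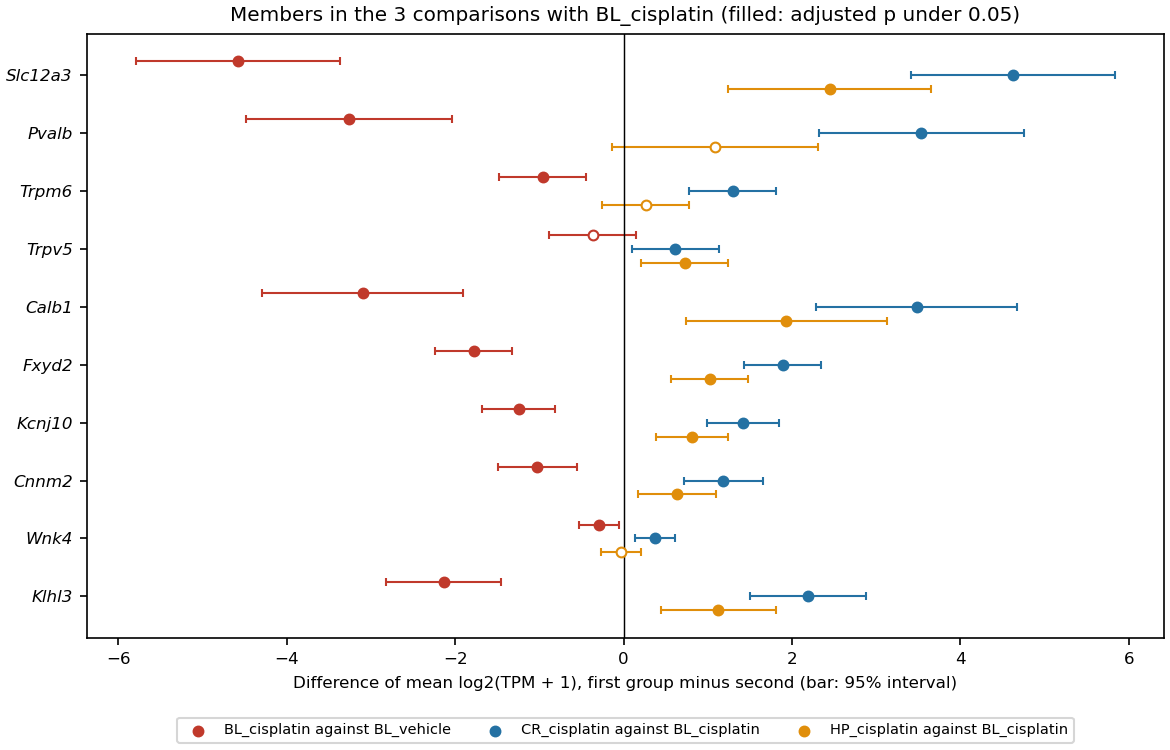
Difference of mean log2(TPM + 1) (horizontal axis) of each member in 3 comparisons that share the BL_cisplatin libraries; points are fitted differences, bars 95% intervals, and open points adjusted p of 0.05 or more. Cisplatin against vehicle runs from -4.58 (Slc12a3) to -0.29 (Wnk4), calorie restriction is above 0 for all 10, and the hypoxia points for Pvalb, Trpm6 and Wnk4 are open.

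With calorie restriction before cisplatin, all 10 members were higher than with cisplatin alone, against 29.8% of the genes tested. The median difference of the members was 1.66 in log2(TPM + 1), against -0.08 over all genes tested. This comparison and the previous one share the BL_cisplatin libraries. Slc12a3 differed by 4.62 (SE 0.56, adjusted p = 5.83e-05) and Pvalb by 3.54 (SE 0.57, adjusted p = 0.000137). The magnesium genes Trpm6 and Cnnm2 differed by 1.29 (SE 0.24, adjusted p = 0.000367) and 1.19 (SE 0.22, adjusted p = 0.000325). CR_cisplatin lay above BL_cisplatin in every library for 9 members, as for 27.5% of the genes tested, and the exception was Trpv5. Without CR_cisplatin 4, 9 members were called, all but Trpv5. In that fit 9475 of the 15014 genes tested were called, and 45.2% of these were higher.

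Calb1 (3.48, SE 0.56, adjusted p = 0.000132), Klhl3 (2.19, SE 0.32, adjusted p = 8.2e-05), Fxyd2 (1.89, SE 0.21, adjusted p = 5.83e-05) and Kcnj10 (1.42, SE 0.20, adjusted p = 7.25e-05) were also higher. The smallest differences were those of Trpv5, 0.61 (SE 0.24, adjusted p = 0.0361), and Wnk4, 0.37 (SE 0.11, adjusted p = 0.00773). The Trpv5 call ended without any of BL_cisplatin 1, 2 or 3 or CR_cisplatin 2 or 4 (adjusted p = 0.0692, 0.0826, 0.124, 0.0893 and 0.0837). Within the first title prefix, which holds CR_cisplatin 1 and all BL_cisplatin libraries, 8 members were called, with Slc12a3 at 4.42 (adjusted p = 0.000267) and Pvalb at 3.42 (4.84e-05). There, Trpv5 (0.42, 0.464) and Wnk4 (0.28, 0.153) were not called, and the lone CR_cisplatin library is assumed to vary like the others. The second prefix holds no BL_cisplatin library.

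Set against vehicle, calorie restriction with cisplatin left 0 of 10 members called (limma), as it left 0.0533% of the genes tested called. At an unadjusted p under 0.05 the count of members was also 0, against 610 of the 15014 genes tested. Voom on the recovered reads called 0 members, and without CR_cisplatin 4 the count was 0 as well. Libraries overlapped for all 10 members, while 9.16% of the genes tested had no overlap. The median difference of the members was 0.17, against 0.01 over all genes tested, and the difference was above 0 for every member. The intervals below use a spread shared by all 4 groups, so they also hold the spread of HP_cisplatin. For Slc12a3 the SD was 107.8 TPM in HP_cisplatin, 30.1 in CR_cisplatin and 8.86 in vehicle. For Slc12a3 the difference was 0.05 (95% interval -1.16 to 1.26), for Trpm6 0.33 (-0.18 to 0.85), for Calb1 0.39 (-0.81 to 1.58) and for Wnk4 0.08 (-0.15 to 0.32). When only these 2 groups entered the fit, 4 members and 2091 of the 15014 genes tested had an unadjusted p under 0.05. In that fit 80 genes and 0 members were called, with a smallest adjusted p of 0.204 among the members.

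With hypoxia before cisplatin, 7 of the 10 members were higher than with cisplatin alone, against 16.4% of the genes tested. The median difference of the members was 0.92 in log2(TPM + 1), against -0.02 over all genes tested. Slc12a3 differed by 2.45 (SE 0.56, adjusted p = 0.00953), Calb1 by 1.93 (SE 0.56, adjusted p = 0.022) and Klhl3 by 1.12 (SE 0.32, adjusted p = 0.0208). Fxyd2 (1.02, SE 0.21, adjusted p = 0.00696), Kcnj10 (0.81, SE 0.20, adjusted p = 0.0121), Trpv5 (0.72, SE 0.24, adjusted p = 0.0377) and Cnnm2 (0.63, SE 0.22, adjusted p = 0.0422) were the others called. Pvalb (1.09, SE 0.57, adjusted p = 0.157), Trpm6 (0.26, SE 0.24, adjusted p = 0.416) and Wnk4 (-0.03, SE 0.11, adjusted p = 0.83) were not.

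These hypoxia calls depended on single libraries and on the spread shared with the other groups. Without HP_cisplatin 4, 3 members were called: Slc12a3 (1.75, adjusted p = 0.0114), Fxyd2 (0.77, 0.00787) and Kcnj10 (0.68, 0.0333). In that fit 2883 of the 15014 genes tested were called, and 63.6% of these were higher. Calb1 (1.35, 0.0542), Klhl3 (0.80, 0.0524), Trpv5 (0.75, 0.0629) and Cnnm2 (0.44, 0.126) lost the call, and Trpm6 turned to -0.08 (0.652). The count of members called was 3 without HP_cisplatin 2 or BL_cisplatin 3 and 4 without BL_cisplatin 2. It was 0 when only the 2 groups entered the limma fit. There, 6 members and 4273 of the 15014 genes tested had an unadjusted p under 0.05. With the title prefix as a term the count was also 0, with 1 member and 1564 genes at such a p. Voom on the recovered reads called 7 members. Of all genes called, 55.5% were higher in the main fit of 15014 genes and 44.6% with voom, over 16763 genes. The share was 32.7% over 18904 genes when mitochondrial, haemoglobin and the 10 most abundant other genes were left out of the scaling. The gene sets differ, so these shares do not compare the scaling alone. The median difference was -0.11 under that scaling, over 14972 genes of the main fit, against -0.02 in the main fit. Under that scaling 6 members, all higher, were called.

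**Figure D3:**
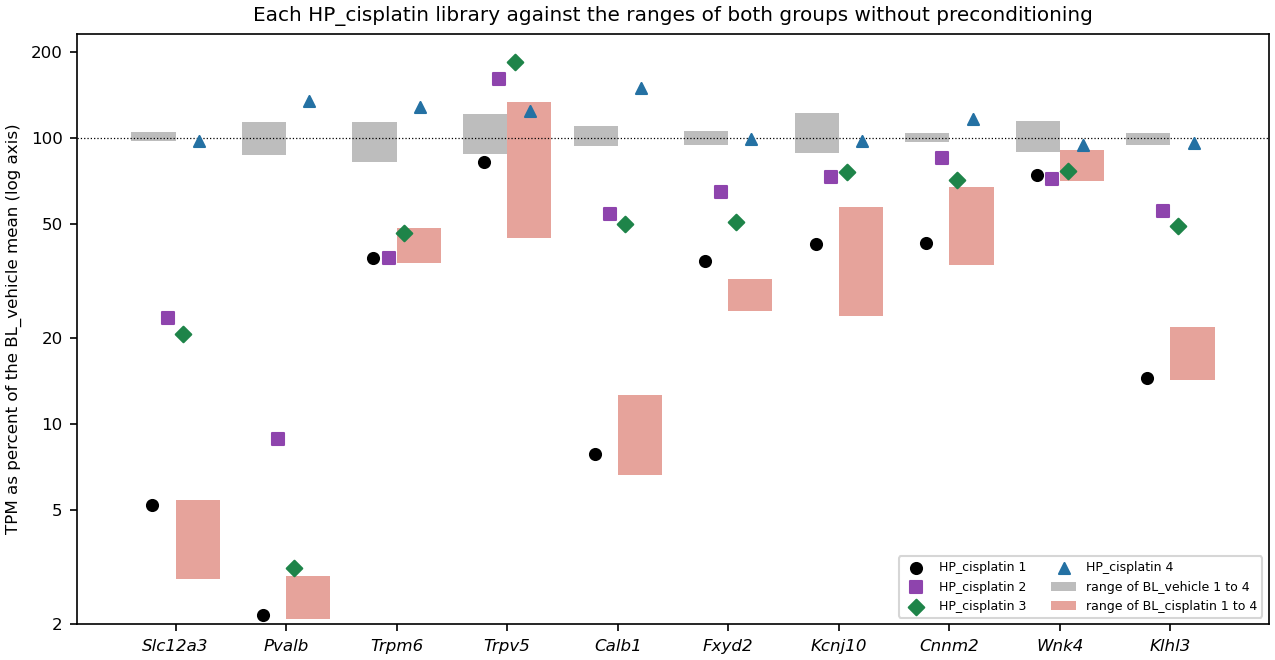
TPM of each HP_cisplatin library as a percent of the BL_vehicle mean (vertical log axis) for the 10 members; grey and red bars are the ranges of the 4 BL_vehicle and the 4 BL_cisplatin libraries. HP_cisplatin 1 is in or near the red range, HP_cisplatin 4 is near 100% or above it, and HP_cisplatin 2 and 3 lie between for Slc12a3 (23.5% and 20.6%), in the red range for Trpm6 and above the grey range for Trpv5 (160% and 184%).

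The members differed in how far the intermediate HP_cisplatin libraries stood from the vehicle mean, a pattern described after the values were seen. Library 2 and library 3 were at 84.7% and 71.5% of it for Cnnm2, 64.6% and 50.9% for Fxyd2, and 55.5% and 49.0% for Klhl3. For Slc12a3 they were at 23.5% and 20.6%, for Pvalb at 8.88% and 3.15%, and for Trpm6 at 38.0% and 46.5%. Trpm6 and Cnnm2, both of magnesium handling, thus stood apart: the TPM ratio of Trpm6 to Cnnm2 was 0.219 and 0.318 in HP_cisplatin 2 and 3, below the range of 0.349 to 0.633 over the vehicle, BL_cisplatin and CR_cisplatin libraries. The ratio of Trpm6 to Trpv5 was 0.313 and 0.333 there, against 1.06 to 1.61 in vehicle and 0.477 to 1.38 in BL_cisplatin. These pairs were chosen after the values were seen and carry no test. Summed proximal tubule markers ranged from 196.9 to 2902 TPM over the HP_cisplatin libraries. Among leukocyte markers, Cd68 read 47.6, 13.2, 31.6 and 1.86 TPM and Csf1r 3.15, 7.83, 5.46 and 11.95 TPM in these libraries, so that the 2 ran in opposite order. The markers' part in the members' spread was not tested.

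Against vehicle, 6 of the 10 members were lower in HP_cisplatin, and 10.1% of the genes tested were called lower. These were Slc12a3 (-2.13, SE 0.56, adjusted p = 0.0189), Pvalb (-2.17, SE 0.57, adjusted p = 0.0183), Klhl3 (-1.01, SE 0.32, adjusted p = 0.0324), Fxyd2 (-0.76, SE 0.21, adjusted p = 0.022), Trpm6 (-0.70, SE 0.24, adjusted p = 0.0447) and Wnk4 (-0.33, SE 0.11, adjusted p = 0.0407). Calb1, Kcnj10 and Cnnm2 read -1.17, -0.43 and -0.39 without a call, and Trpv5 read 0.35 (adjusted p = 0.265). Libraries overlapped for all 10 members, while 15.2% of the genes tested had no overlap. Without HP_cisplatin 4, 9 members were called lower, among them Calb1 (-1.75, adjusted p = 0.0064), and Trpv5 was the exception (0.38, 0.247). Calls over the 15014 genes tested rose as well in that fit, from 4398 to 7709, of which 65.2% were higher. Voom on the recovered reads called 5 members. Without HP_cisplatin 3, 0 members were called, with 6 members and 5167 of the 15014 genes tested at an unadjusted p under 0.05. The count of members called was 2 without HP_cisplatin 1 or BL_vehicle 3 and 3 without BL_vehicle 1 or 2. Within the second title prefix, which holds both groups, 0 members were called, with Slc12a3 at -2.13 (adjusted p = 0.0649). There, 7 members and 5847 of the 15014 genes tested had an unadjusted p under 0.05.

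Other genes of the pathway were read from 4 lists that hold none of the members. Over all genes tested, 66.8% were called after cisplatin, 38.0% higher and 28.8% lower. Against BL_cisplatin, 29.8% were higher and 37.4% lower with calorie restriction, and 16.4% higher and 13.1% lower with hypoxia. Of 6 further markers of the distal convoluted tubule, 6 fell after cisplatin and 0 rose (median -2.60 in log2(TPM + 1), against 0.08 over all genes tested). Tmem52b fell by 3.66 (adjusted p = 8.64e-05) and Ppp1r1b by 2.90 (4.14e-05), while the transcription factor gene Emx1 fell by 2.55 (5.15e-05) and the monocarboxylate carrier gene Slc16a7 by 2.65 (9.28e-05). All 6 were higher with calorie restriction and 6 with hypoxia, a count of 3 without HP_cisplatin 4. Many genes of these lists are also expressed in the thick ascending limb or elsewhere in the tubule.

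Of 13 genes that control NCC, 6 were lower, 2 higher and 5 not called (median -0.34), so that the number called was near the share over all genes tested. The lower ones included Wnk1 (-0.86, adjusted p = 0.000598), the kinase that acts beside WNK4, the mineralocorticoid receptor Nr3c2 (-0.65, 0.00016), the kinase adaptor Cab39l (-0.88, 0.000192) and Cul3, the KLHL3 partner (-0.37, 0.000657). Fkbp1a, which encodes an immunophilin, rose by 1.31 (5.63e-05) and the kinase gene Oxsr1 by 0.40 (0.00197). Stk39, which encodes the kinase SPAK between WNK4 and NCC, read -0.34 without a call (0.0525). With calorie restriction 7 of the 13 were higher and 2 lower, and with hypoxia 4 were higher and 1 lower, 2 in all without HP_cisplatin 4.

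Of 21 other magnesium genes tested, 7 rose, 7 fell and 7 were not called after cisplatin (median -0.19), a split near that over all genes tested, and it says nothing particular of this list. Kcna1 was below the filter. Egf, whose product stimulates TRPM6, fell by 5.39 (adjusted p = 4.53e-05), from 155.3 to 208.3 TPM in vehicle to 2.37 to 5.41 TPM. Pcbd1, a partner of HNF1 factors, fell by 1.64 (4.13e-05), the TRPM6 relative Trpm7 by 0.83 (6.32e-05) and the tight junction gene Cldn16 of the thick ascending limb by 1.61 (8.9e-05). In contrast the CNNM-binding phosphatases Ptp4a1, Ptp4a2 and Ptp4a3 rose by 1.92 (4.53e-05), 1.09 (7.23e-05) and 1.40 (0.00133), and the magnesium carrier gene Slc41a1 rose by 1.17 (0.000206). Slc41a3 (0.33), Arl15 (0.57) and Nipa2 (0.17) rose as well. Within the CNNM family, Cnnm4 fell by 0.54 (0.00664), while Cnnm1 and Cnnm3 each read -0.19 without a call. With calorie restriction 8 of 21 were higher and 6 lower, and with hypoxia 8 higher and 1 lower, 6 in all without HP_cisplatin 4.

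Of 10 other genes of distal calcium handling, 6 fell and 2 rose (median -0.76). The klotho gene Kl fell by 3.54 (adjusted p = 5.97e-05), the calcium-sensing receptor gene Casr by 2.74 (5.71e-05) and the sodium-calcium exchanger gene Slc8a1 by 2.47 (0.000485). Pth1r, the parathyroid hormone receptor gene, also fell (-2.499, 4.8e-05). Against these, the calcium pump gene Atp2b1 rose by 0.30 (0.00268). The other gene counted as higher was Trpv6, the close relative of Trpv5. It read 0.327 to 0.365 TPM in vehicle and 1.39 to 2.46 TPM in BL_cisplatin, a difference of 1.12. Trpv6 passed the filter only through the BL_cisplatin libraries. The filter thus set the direction of its calls, here and with calorie restriction, and its values are given with no test. With calorie restriction 6 were higher and 2 lower, and with hypoxia 7 were higher, 4 without HP_cisplatin 4.

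**Figure D4:**
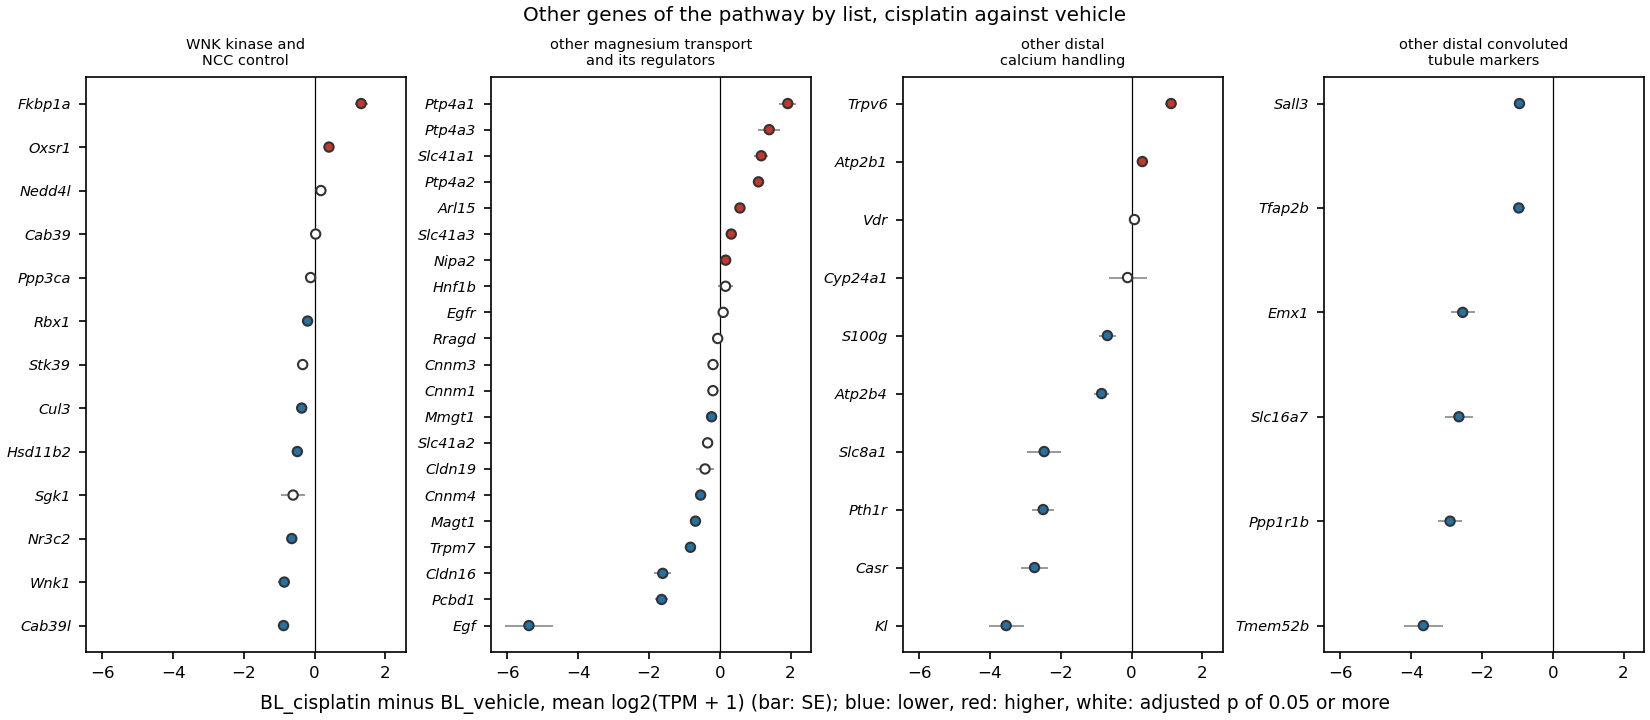
Difference of mean log2(TPM + 1), BL_cisplatin minus BL_vehicle (horizontal axis), for the tested genes of 4 pathway lists, a panel per list; bars are standard errors, blue points were called lower, red points higher and white points were not called. All 6 further markers are lower, while the magnesium list splits into 7 higher and 7 lower, from Egf at -5.39 to Ptp4a1 at 1.92.

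For each member the nearest patterns among 11678 candidate genes were found by the mean absolute difference of log2(TPM + 1), relative to the vehicle mean, over the 16 libraries. For Slc12a3 these were Aadat (0.17), C1qtnf3 (0.19) and Slc22a22 (0.21), and for Klhl3 Scn4b (0.10), Fam195a (0.10) and Oxgr1 (0.11). For Calb1 they were Slc5a8 (0.23), Ggt1 (0.24) and the calcium exchanger gene Slc8a1 (0.25). For Pvalb they were Car4 (0.27), Sfrp1 (0.28) and Kap (0.28). For the magnesium genes they were Ido2 (0.13), Unc5c (0.14) and Ccdc6 (0.15) beside Trpm6, and Smco4 (0.07), Ogdh (0.08) and Rmnd1 (0.08) beside Cnnm2. Trpv5 had Tkfc (0.15), G0s2 (0.17) and Gpd1 (0.18), and Wnk4 had Fam69a (0.07), Supt3 (0.07) and Pfas (0.08). Fxyd2 had Ift122 (0.09), Mtfp1 (0.09) and Arhgap24 (0.10), and Kcnj10 had Ybx2 (0.11), Mccc1 (0.12) and Ldhb (0.12).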

How the data were processed

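RNA of mouse kidney, with ribosomal RNA removed, was sequenced in 4 libraries for each of the 4 groups, which follow the labels' injection and preconditioning fields. The values the authors deposited are TPM per gene, a unit read from column sums of 1000000. Builds mm10 and GRCm38 and the tools Subread 1.5, featureCounts and STAR 2.5 are listed per the submitters' processing notes; filters and strand settings are not given in the sources used here. TPM are not counts, so limma 3.58.1 (R 4.3.3, statmod 1.5.0; trended, robust, 2-sided) was fitted to log2(TPM + 1) of the 16 libraries, with no term beside group, for genes that reached 1 TPM in 4 or more libraries. P-values were adjusted by Benjamini-Hochberg over all 15014 genes tested. Fit and read recovery were tested on simulated data first.

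Whole reads were recovered from the TPM and exon lengths (GENCODE M21, in which 45229 IDs were found) within 0.0001 reads for all 32198 genes with a value above 0: 24571 (76.3%) with the annotated length and 7627 with a searched one. These reads gave the depth of each library and the voom alternative. With so many reads per library, the precision of most members is set by the spread between libraries. Members and lists were chosen with earlier results of these data known. Of each list, the 4 genes with the smallest adjusted p after cisplatin and those against the list's majority were named, and for each member the 3 nearest patterns; Cul3, Stk39, Slc8a1, and the magnesium genes beyond the first 4 were named after their values were seen. A list of basolateral transport genes is not reported here, nor is the planned permutation test of ratios to Slc12a3, since that member moved most and fixes their direction. Alternatives were another pseudocount, other filters, scaling without the most abundant genes, only the groups compared, the title prefix, voom, and leaving out each library.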

Additional observations from a re-analysis of the deposited data

Results flagged for a closer look

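In 40 sets of 4 libraries (10 members in 4 groups), 2 held a library far from the other 3, about as many as chance gives (2). Trpm6 read 8.41 TPM in HP_cisplatin 4 and 2.49 to 3.05 TPM in the other HP_cisplatin libraries, a gap of 0.85 of the range. Wnk4 read 31.3 TPM in CR_cisplatin 2 and 24.6 to 25.1 TPM in the other CR_cisplatin libraries, a gap of 0.912 of the range.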

How the results depend on the processing

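No paired analysis was possible because the labels number no replicates. The number of members called kept within 1.5 times of its value for cisplatin against vehicle (8 to 10 when 1 library was left out), except with the title prefix as a term (4), and for calorie restriction against cisplatin alone under all alternatives run (8 with the prefix as a term or within the first prefix, otherwise 9 to 10). For hypoxia against cisplatin alone it was 3 to 8 when 1 library was left out and 0 when only the groups compared were fitted or the prefix was a term. For hypoxia against vehicle it was 0 to 9 when 1 library was left out, 3 without a filter and 0 when only the groups compared or only the second prefix were fitted.

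Over all genes tested, cisplatin against vehicle gave 6656 calls at 5 TPM or more and 3413 with the prefix as a term, and 9363 to 10454 when 1 library was left out. Calorie restriction against cisplatin alone gave 6728 at 5 TPM or more, 6327 with the prefix as a term and 6690 within the first prefix. Hypoxia against cisplatin alone gave 0 with only the groups compared (4273 at an unadjusted p under 0.05), 0 with the prefix as a term (1564), and 2210 to 7156 when 1 library was left out. Calorie restriction against vehicle gave 15 without a filter, 80 with only the groups compared, 3 within the second prefix and 4 to 17 when 1 library was left out. Hypoxia against vehicle gave 11 with only the groups compared, 43 within the second prefix and 692 to 7709 when 1 library was left out. A stricter filter tests fewer genes (8963); the other causes were not tested.

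Changes of sign were limited to values near 0 and to Pvalb. When 1 library was left out, Wnk4 in hypoxia against cisplatin alone ran from -0.12 to 0.02, Trpm6 from -0.077 to 0.401, and in calorie restriction against vehicle Slc12a3 from -0.01 to 0.11 and Klhl3 from -0.031 to 0.123. With a pseudocount of 0.1 the ratio of Pvalb to Slc12a3 turned to -0.20 after cisplatin and to 0.45 with calorie restriction. The ratios to Slc12a3 are given with no test. The prefix coincides with the groups for cisplatin against vehicle and for hypoxia against cisplatin alone, so fits with it as a term rest on CR_cisplatin 1. The few Pvalb reads limit the Pvalb value in BL_cisplatin.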
